A study of Mus musculus with 6 samples.

Results

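Bcl6, Prdm1 and Bach2 are transcriptional repressors that act on one another in lymphocytes, and their RNA was followed across 3 sorted populations of mouse CD4+ T cells. They were chosen by name, as every probe set whose platform gene symbol is one of the 3, which gave 3 probe sets, 1 for each gene, of 23410 probe sets with a symbol. The cells were CD44+ (antigen-experienced) and came from draining lymph nodes of male Bcl6_RFP reporter mice aged 8 to 10 weeks, immunised with KLH/CFA, a protein antigen given in an oily adjuvant. The comparison of both Cxcr5+ populations is called the Bcl6 gate here, and that of both reporter-negative populations the Cxcr5 gate. All 3 populations share that genotype and that immunisation. They were Cxcr5+Bcl6+ cells, which carried the surface chemokine receptor Cxcr5 and the red fluorescent Bcl6 reporter, Cxcr5+Bcl6- cells, which carried the receptor alone, and Cxcr5-Bcl6- cells, which carried neither. Each was measured on 2 Affymetrix arrays, described by the submitters as biological replicates. The labels do not say whether cells of several mice were pooled or whether sorted cells were restimulated before RNA was taken. If the replicates did not come from separate mice, the p-values measure only the spread between these samples.

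Bcl6 is a zinc finger repressor with a BTB domain, through which it binds corepressors, and follicular helper T cells and germinal centre B cells need it. Prdm1 encodes Blimp-1, a zinc finger repressor of the PRDM family that drives plasma cell and effector T cell differentiation. Bcl6 and Blimp-1 are known to repress each other's genes, so that a cell tends to be high in one and low in the other. Bach2 is a BTB and leucine zipper factor that pairs with small Maf proteins at sites resembling those of AP-1. It represses Prdm1 and effector genes, is high in B cells and naive T cells, and has been described as a partner of Bcl6 in B cells and as a restraint on follicular helper differentiation in T cells.

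The promoter windows of Bcl6 and Prdm1 printed here are shown because they are those that held a match to a searched motif. In Bcl6 it was that of Bcl6 itself, and in Prdm1 a loose form of that of Bach2. RefSeq (GRCm38.p6) lists 2 starts for Bcl6 and 1 start each for Prdm1 and Bach2, and the 250 bases before each start were searched on both strands for 3 motifs. These were TTCCTNGAA for Bcl6, AGTGAAAG for Blimp-1 and TGANTCA for Bach2, where N is any base. The last is a loose form of the site that Bach2 and AP-1 share, whose middle base is C or G. The window before the second Bcl6 start (chr16:23981284-23981533, minus strand) held the Bcl6 motif at position -168 from the start. The Prdm1 window (chr10:44458749-44458998, minus strand) held TGANTCA at position -48, as TGAATCA. Its middle base is A, so it matches the loose form only. Both are printed 5′ to 3′ with the match in capitals.
Bcl6, second listed start: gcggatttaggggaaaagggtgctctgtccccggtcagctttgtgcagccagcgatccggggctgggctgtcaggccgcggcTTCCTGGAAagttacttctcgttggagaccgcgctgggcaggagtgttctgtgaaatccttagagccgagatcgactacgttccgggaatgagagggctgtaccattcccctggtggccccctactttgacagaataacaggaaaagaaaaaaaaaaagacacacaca
Prdm1: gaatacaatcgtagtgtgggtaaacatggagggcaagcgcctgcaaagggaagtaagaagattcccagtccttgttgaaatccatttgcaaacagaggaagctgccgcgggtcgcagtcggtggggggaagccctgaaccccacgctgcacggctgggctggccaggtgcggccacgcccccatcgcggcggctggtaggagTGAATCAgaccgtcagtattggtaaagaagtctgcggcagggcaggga
Over 32851 promoter windows of the same length, 1.31% held the Bcl6 motif, 1.09% the Blimp-1 motif and 6.75% TGANTCA with any middle base. None of the 3 motifs was found in the windows before the first Bcl6 start and before Bach2, which says only that these letters are not there. A match is a description of the sequence and no evidence of binding.

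As a check of the cell type, 11 of 13 listed T cell genes were measured, Cd4, Cd3e and Cd44 among them, and all 11 lay above the dim range on all 6 arrays. The dim range was set by 1222 olfactory, vomeronasal and trace-amine receptor genes, a set with no known role in T cells, and its upper edge was their 95th percentile on each array (7.30 to 7.73). Arrays correlated across probe sets at 0.997 to 0.999 within groups and 0.971 to 0.992 between groups. Levels of these receptor genes had a median difference of 0.22 between Cxcr5+Bcl6+ cells and Cxcr5-Bcl6- cells, 0.30 between Cxcr5+Bcl6+ cells and Cxcr5+Bcl6- cells, and -0.07 between Cxcr5+Bcl6- cells and Cxcr5-Bcl6- cells (log2).

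Bcl6 RNA followed the reporter, which is a check of the sort and not a finding. The Bcl6 probe set (10438738) stood at 11.45 and 11.55 in Cxcr5+Bcl6+ cells, at 10.55 and 10.56 in Cxcr5+Bcl6- cells and at 10.31 on both arrays of Cxcr5-Bcl6- cells (log2 level). Both Cxcr5+Bcl6+ arrays were above all others, and the Cxcr5+Bcl6- arrays were above the Cxcr5-Bcl6- arrays without overlap. The group means were 11.497 ± 0.0696, 10.558 ± 0.00685 and 10.309 ± 0.00243 in that order (SD, n = 2 each). Cells sorted as reporter-positive thus had 1.92 times the Bcl6 RNA of Cxcr5+Bcl6- cells (95% interval 1.68 to 2.19) and 2.28 times that of Cxcr5-Bcl6- cells (1.99 to 2.60). Reporter-negative cells of both kinds lay far above the dim range, with 10.31 as the lowest value. All 3 groups were without overlap in Bcl6, an order that 9.2% of genes shared, and 17.6% of probe sets were called higher in Cxcr5+Bcl6+ cells than in Cxcr5-Bcl6- cells.

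The reporter-negative populations were set apart by Cxcr5, but both were also sorted for lack of the Bcl6 reporter. The sort thus selected on Bcl6 in both, and the difference between them is what remained after that selection. The Bcl6 difference there was 0.25 (log2), with a 95% interval of 0.06 to 0.44 (limma adjusted p = 0.103), where 5.22% of probe sets were called higher. Of 19938 genes taken at 1 probe set each, 1651, Bcl6 included, had a difference at least as high between these groups. It did not pass the threshold of 0.05 on the p adjusted over 23410 probe sets, but quantile normalisation brought it past (0.28, limma adjusted p = 0.0409), as did a test of only the probe sets above the median level (0.25, limma adjusted p = 0.0478). In Cxcr5+Bcl6- cells Bcl6 lay 0.35 under the midpoint of the other groups (log2 difference -0.35, interval -0.51 to -0.18, limma adjusted p = 0.0146), a contrast the reporter gate enters, with 4.08% of probe sets called under it. That call was lost without either Cxcr5+Bcl6- array (adjusted p = 0.187 and adjusted p = 0.163).

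Prdm1 RNA was low in Cxcr5+Bcl6+ cells alone. The Prdm1 probe set (10368970) stood at 7.80 and 7.51 in Cxcr5+Bcl6+ cells, at 10.03 and 9.94 in Cxcr5+Bcl6- cells and at 9.77 and 9.78 in Cxcr5-Bcl6- cells (log2 level). Both Cxcr5+Bcl6+ arrays were over 2 log2 units under every Cxcr5+Bcl6- array, and the groups did not overlap, as was so for 65% of genes. Prdm1 was 5.03-fold lower in Cxcr5+Bcl6+ cells (7.654 ± 0.201) than in Cxcr5+Bcl6- cells (9.984 ± 0.063; SD, n = 2 each), a log2 difference of -2.33 with a 95% interval of -2.56 to -2.10 (limma adjusted p = 6.07e-08). Against Cxcr5-Bcl6- cells (9.776 ± 0.0049) it was 4.35-fold lower, a log2 difference of -2.12 with an interval of -2.35 to -1.89 (limma adjusted p = 5.41e-08). In bulk samples, fewer cells that express a gene and less RNA per cell cannot be told apart.

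The Cxcr5+Bcl6+ arrays had the widest replicate spread in Prdm1 (SD 0.201). One of them, at 7.80, was just over the upper edge of the dim range on that array (7.72), and the other, at 7.51, was under it (7.73). Prdm1 thus fell to about the upper edge of the dim range, and how far the array compressed the difference was not tested. In all, 37 of 19938 genes, Prdm1 included, fell as far or further between Cxcr5+Bcl6+ cells and Cxcr5+Bcl6- cells, and 100 did between Cxcr5+Bcl6+ cells and Cxcr5-Bcl6- cells.

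The Cxcr5 gate by itself came with no called difference in Prdm1. Its level was higher by 0.21 (log2) in Cxcr5+Bcl6- cells than in Cxcr5-Bcl6- cells, with a 95% interval of -0.02 to 0.44 (limma adjusted p = 0.293, and 0.159 to 0.785 over 16 alternative settings). Prdm1 in Cxcr5+Bcl6- cells lay 1.27 above the midpoint of the other 2 groups (interval 1.07 to 1.47, limma adjusted p = 9.38e-06), and 28 of 19938 genes, Prdm1 included, lay as far above, while 4.16% of probe sets were called above it. This value follows from the differences at both gates. A gene low in Cxcr5+Bcl6+ cells alone lies above the midpoint, so for Prdm1 it restates the fall at the Bcl6 gate.

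Bach2 RNA stepped down at both gates. The Bach2 probe set (10503695) stood at 10.23 and 10.53 in Cxcr5+Bcl6+ cells, at 10.97 and 10.96 in Cxcr5+Bcl6- cells and at 11.52 and 11.65 in Cxcr5-Bcl6- cells (log2 level). The 3 groups did not overlap, with Cxcr5+Bcl6+ arrays lowest and Cxcr5-Bcl6- arrays highest, an order that 12.1% of genes shared. Groups were without overlap for 61.4% of genes between Cxcr5+Bcl6+ cells and Cxcr5-Bcl6- cells, and for 49.7% between the reporter-negative groups. Bach2 was 2.31-fold lower in Cxcr5+Bcl6+ cells (10.379 ± 0.215) than in Cxcr5-Bcl6- cells (11.584 ± 0.0883; SD, n = 2 each), a log2 difference of -1.20 with a 95% interval of -1.45 to -0.96 (limma adjusted p = 5.65e-06). Its level remained far above the dim range in every group.

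By the group means, each gate held close to the same share of that fall. Between Cxcr5+Bcl6- (10.968 ± 0.00945) and Cxcr5-Bcl6- cells Bach2 fell by 0.62 on the log2 scale (interval -0.86 to -0.37, limma adjusted p = 0.00368), which is 51.1% of the whole difference. Between Cxcr5+Bcl6+ cells and Cxcr5+Bcl6- cells it fell by 0.59 (interval -0.83 to -0.35, limma adjusted p = 0.00213), the other 48.9%. That step was -0.44 without replicate 1 and -0.74 without replicate 2 of the Cxcr5+Bcl6+ cells, so how evenly the fall was split is not resolved. The Bach2 level in Cxcr5+Bcl6- cells differed from the midpoint of the other groups by -0.01 (interval -0.22 to 0.20, limma adjusted p = 0.96). At the Cxcr5 gate 284 of 19938 genes, Bach2 included, fell as far or further, against 1050 at the Bcl6 gate.

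**Figure D1:**
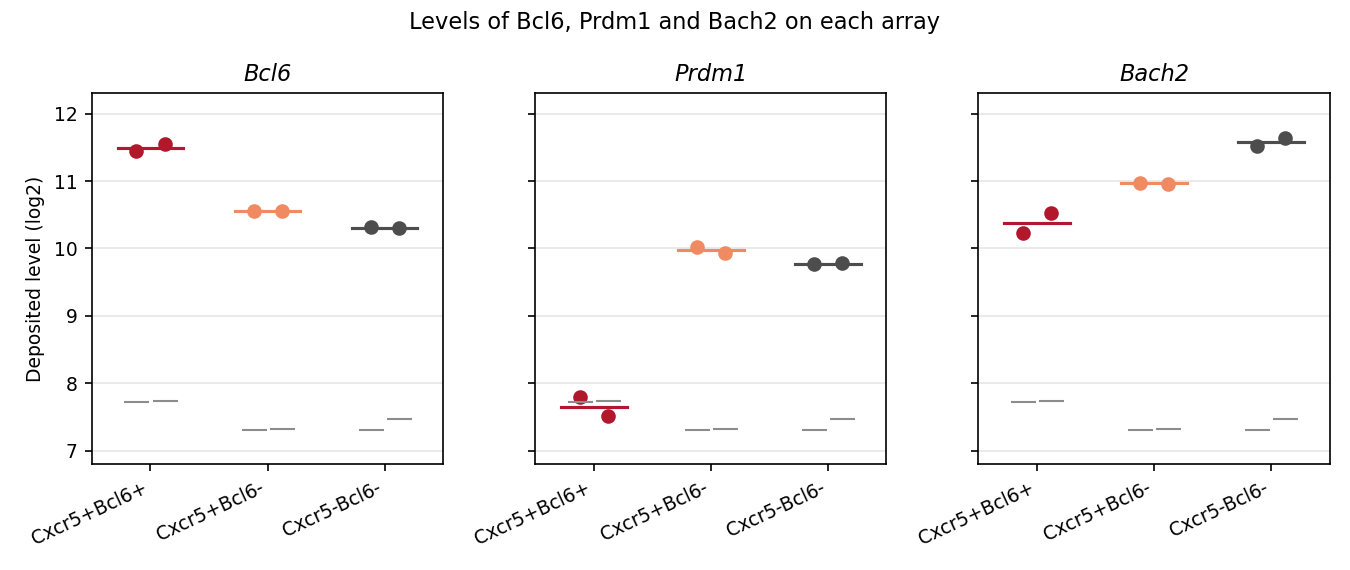
Deposited level (log2) of each gene on each array, with points for the 2 arrays of a group, a coloured bar for their mean and short grey marks for the upper edge of the dim range on that array. Prdm1 stands at 7.51 and 7.80 in Cxcr5+Bcl6+ cells, beside the grey marks, while Bcl6 is highest and Bach2 lowest in Cxcr5+Bcl6+ cells.

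Set side by side, the genes opposed to Bcl6 did not follow one course. Where Bcl6 RNA was highest, both Prdm1 and Bach2 were lowest, and both passed the test in each comparison that involved Cxcr5+Bcl6+ cells. This reads against 35.3% of all probe sets called between Cxcr5+Bcl6+ cells and Cxcr5-Bcl6- cells and 26.4% called between Cxcr5+Bcl6+ cells and Cxcr5+Bcl6- cells. Where the 2 reporter-negative populations were compared, 11.1% of probe sets were called, and Bach2, called lower with 5.93% of probe sets, was the only called gene of the 3. In Cxcr5+Bcl6- cells Prdm1 lay well above the midpoint of the other groups and Bach2 close to it, in a contrast that called 8.24% of probe sets. Their intervals do not overlap, but the difference between the genes was not itself tested. For Bcl6, 20.9% of the whole difference lay at the Cxcr5 gate and 79.1% at the gate set on its own reporter. The comparisons share arrays and are not independent, and the midpoint contrast is a combination of the differences at both gates.

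**Figure D2:**
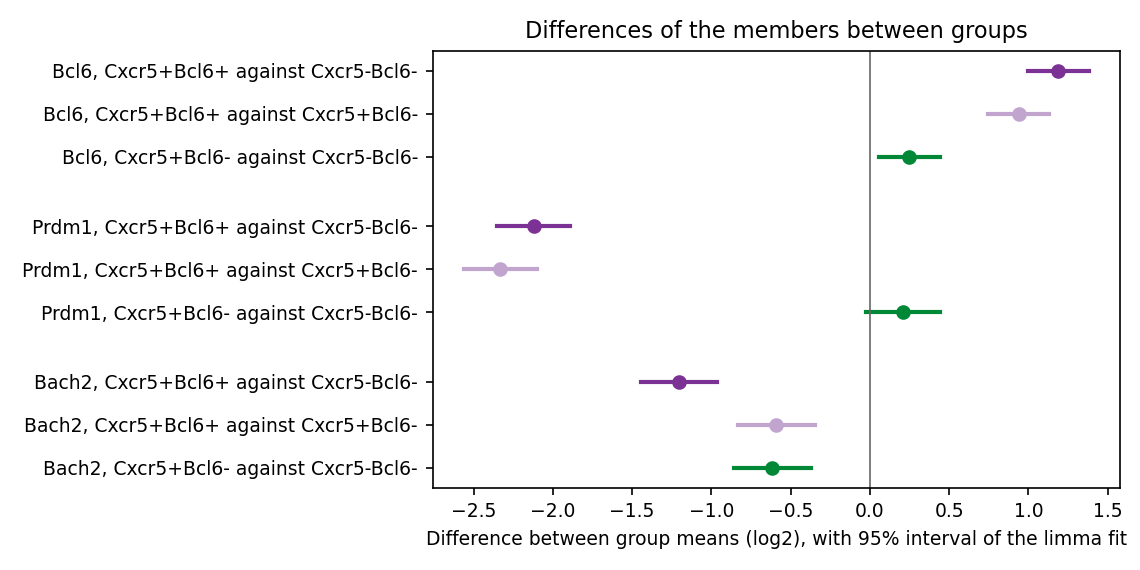
Difference between group means (log2, the group named on the left of each label minus the other) with its 95% interval from the limma fit, for each gene and comparison. Prdm1 lies near -2.12 and -2.33 in the comparisons with Cxcr5+Bcl6+ cells and at 0.21 between the reporter-negative groups, whereas Bach2 lies below 0 in all 3.

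Calls among partners of Bcl6 and Blimp-1 went both ways, for the Bcl6 partners at a share not far from that of all genes. Of 22 listed Bcl6 corepressors and cofactors, 20 were measured, and 5 were higher and 3 lower in Cxcr5+Bcl6+ cells than in Cxcr5-Bcl6- cells (median -0.01 against 0.04 for all genes), while 34.1% of all genes were called. Mta3, a subunit of the nucleosome remodelling complex that Bcl6 uses in B cells, rose at both gates, by 0.47 at the Cxcr5 gate and 0.43 at the Bcl6 gate (limma adjusted p = 0.00475 and adjusted p = 0.00343). The first of these calls was lost without Cxcr5+Bcl6- replicate 1 (limma adjusted p = 0.0657, the highest over its alternatives). Bcor, the corepressor that binds the BTB domain, was lower in Cxcr5+Bcl6+ cells than in Cxcr5-Bcl6- cells (-0.58, limma adjusted p = 0.00134). Tbl1xr1, part of the nuclear receptor corepressor complex, was higher (0.52, limma adjusted p = 0.0015). Among 8 Blimp-1 cofactors 2 rose and 4 fell in that comparison, with Tle1 (-0.79), the arginine methyltransferase gene Prmt5 (-0.74) and the deacetylase gene Hdac2 (-0.78) down and the histone methyltransferase gene Ehmt2 (0.65) up. Tle1 lay in the dim range in both Cxcr5+ groups.

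A list of 8 genes held partners and relatives of Bach2 and the target gene Hmox1, which is also counted among the genes repressed by Bach2. Of these 8, Hmox1 and Nfe2l2 rose, and Maff, Mafk and Bach1 fell, in the same comparison, where 34.1% of all genes were called. Mafk and Maff, whose small Maf proteins pair with Bach2, were the larger falls. Mafk stood at 9.07 and 9.15 in Cxcr5+Bcl6+ cells, at 9.85 and 9.80 in Cxcr5+Bcl6- cells and at 10.32 and 10.07 in Cxcr5-Bcl6- cells. Its difference between Cxcr5+Bcl6+ cells and Cxcr5-Bcl6- cells was -1.09 (log2, limma adjusted p = 7.14e-06). Maff differed by -1.03 in the same comparison (limma adjusted p = 6.19e-06), but on the Cxcr5+Bcl6+ arrays it lay under the dim range's upper edge (7.06 and 7.25). Hmox1, the haem oxygenase gene that Bach proteins are known to repress, rose at both gates. It stood at 10.27 and 10.35 in Cxcr5+Bcl6+ cells, at 9.50 and 9.44 in Cxcr5+Bcl6- cells and at 8.79 and 8.50 in Cxcr5-Bcl6- cells, and the 3 groups did not overlap. The rise was 0.82 at the Cxcr5 gate and 0.84 at the Bcl6 gate (limma adjusted p = 0.000451 and adjusted p = 0.000151). Bach1, the nearest relative of Bach2, was lower by 0.38 (log2) in Cxcr5+Bcl6- cells than in Cxcr5-Bcl6- cells (limma adjusted p = 0.0157). That call was lost with all rows of the table tested, without either Cxcr5+Bcl6- array and without replicate 1 of the Cxcr5-Bcl6- cells. The Bach1 fall between Cxcr5+Bcl6+ cells and Cxcr5-Bcl6- cells (-0.27) was lost under 8 of its alternatives, and the Nfe2l2 rise there (0.45) without replicate 2 of the Cxcr5+Bcl6+ cells.

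Calls among relatives of Bcl6 and Blimp-1 went both ways, at shares not far from that of all genes. Of 24 BTB zinc finger genes, all measured, 5 were higher, Bcl6 among them, and 5 lower in Cxcr5+Bcl6+ cells than in Cxcr5-Bcl6- cells, where 34.1% of all genes were called in either direction. Zbtb32, a repressor known from effector T cells and plasma cells, was, like Prdm1, lowest in Cxcr5+Bcl6+ cells. It stood at 8.57 and 8.62 in Cxcr5+Bcl6+ cells, at 10.03 and 10.13 in Cxcr5+Bcl6- cells and at 9.65 and 9.78 in Cxcr5-Bcl6- cells. It fell by 1.48 at the Bcl6 gate (log2, limma adjusted p = 5.72e-07) and rose by 0.36 at the Cxcr5 gate (limma adjusted p = 0.0249), a call lost with all rows tested, without either Cxcr5+Bcl6- array and without replicate 1 of the Cxcr5-Bcl6- cells. Zbtb7b, which encodes the CD4 lineage factor ThPOK, was higher by 0.73 in Cxcr5+Bcl6+ cells than in Cxcr5-Bcl6- cells (limma adjusted p = 7.43e-05). Among 13 measured PRDM genes, 1 rose (Prdm10, 0.66) and 3 fell in that comparison, and apart from Prdm1 the falls were Prdm4 (-0.40) and Prdm15 (-0.35), both of which were lost without Cxcr5+Bcl6+ replicate 1, and Prdm15 also without Cxcr5-Bcl6- replicate 2.

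Most inputs that are known to raise Prdm1 or oppose Bcl6 fell at the Bcl6 gate. Of 14 measured, 10 were lower and 0 higher in Cxcr5+Bcl6+ cells than in Cxcr5+Bcl6- cells by limma (median -0.87, against 0.06 for all genes), where 13.2% of all genes were called lower. At an unadjusted p under 0.05, 0 of the 14 were higher, and 0 were called higher under each of 16 alternatives. Il2, the cytokine that induces Blimp-1 through Stat5, stood at 9.18 and 9.27 in Cxcr5+Bcl6+ cells, at 11.93 and 11.71 in Cxcr5+Bcl6- cells and at 11.66 and 11.52 in Cxcr5-Bcl6- cells. Its receptor chain gene Il2ra, which is also a marker of regulatory T cells, stood at 10.63 and 10.81 in Cxcr5+Bcl6+ cells, at 13.64 and 13.63 in Cxcr5+Bcl6- cells and at 13.72 and 13.79 in Cxcr5-Bcl6- cells. Both were low in Cxcr5+Bcl6+ cells alone, with differences of -2.59 and -2.92 from Cxcr5+Bcl6- cells (limma adjusted p = 2.02e-08 and adjusted p = 3.69e-09). Tbx21, which encodes T-bet, differed by -3.47 and Il12rb2, an interleukin 12 receptor chain in the dim range in Cxcr5+Bcl6+ cells, by -2.51. In Cxcr5+Bcl6- cells 8 of the 14 lay above the midpoint of the other groups (median 0.39), where 4.31% of all genes were called above it and 2.59% under it. Genes low in Cxcr5+Bcl6+ cells alone lie above it, so this count largely restates the falls at the Bcl6 gate. At the Cxcr5 gate 1 of the 14 was higher (Il10, 0.55) and 3 were lower (Irf4, Il12rb2 and Tbx21, by 0.33 to 0.52 in size), and of these 4 calls those of Il12rb2 and Tbx21 were lost with all rows tested and without any 1 of the 4 arrays compared. That of Il10 was lost under 6 of its alternatives. Over all genes 5.5% were called higher and 5.49% lower at the Cxcr5 gate. This list shares 4 of its 14 measured genes (28.6%) with the genes reported as repressed by Bcl6 and 3 (21.4%) with those of Bach2. It shares 1 (7.1%) each with the lists of genes reported as repressed and as raised by Blimp-1 and with the inputs known to raise Bcl6. The counts of these lists are thus not separate observations.

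Inputs known to raise Bcl6 moved both ways. Of 14 measured, 8 were higher and 5 lower in Cxcr5+Bcl6+ cells than in Cxcr5+Bcl6- cells, with 25% of all genes called in either direction. Ascl2, a helix-loop-helix factor of early follicular helper cells, stood at 8.57 and 8.74 in Cxcr5+Bcl6+ cells, against 7.33 and 7.19 in Cxcr5+Bcl6- cells, at the upper edge of the dim range, and was higher by 1.40. The nuclear factor genes Tox2 and Tox were higher by 1.21 and 0.77. Irf4, which acts on both Bcl6 and Prdm1 depending on its dose, was lower by 1.03 in size (limma adjusted p = 5.30e-06). Il21 was highest in Cxcr5+Bcl6- cells, at 10.12 and 10.16 in Cxcr5+Bcl6+ cells, 10.94 and 10.79 in Cxcr5+Bcl6- cells and 9.80 and 9.40 in Cxcr5-Bcl6- cells. Batf also peaked in Cxcr5+Bcl6- cells, with a level 0.54 above the midpoint of the other groups (limma adjusted p = 0.00267), and Il21 lay 0.99 above it (limma adjusted p = 0.000106).

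Genes reported as repressed by Bcl6 were lower in Cxcr5+Bcl6+ cells in most cases. Of 30 listed genes, 24 were measured, and 19 were lower and 2 higher than in Cxcr5+Bcl6- cells (median -0.99 against 0.06 for all genes), with 13.2% of all genes called lower and 11.8% called higher. The T helper cytokine genes Ifng (-5.31), Il17a (-3.80) and the chemokine gene Ccl3 (-4.65) had the smallest p beside Tbx21 (-3.47), with Ifng at 7.50 on both Cxcr5+Bcl6+ arrays, in the dim range. Against Cxcr5-Bcl6- cells 20 were lower and 3 higher (median -1.28), where 17.7% of all genes were called lower and 16.4% higher. Between the reporter-negative groups 8 were higher and 6 lower in Cxcr5+Bcl6- cells (median 0.09, against -0.03 for all genes), where 5.5% of all genes were called higher and 5.49% lower. The smallest p among the rises were those of Ifng (1.17) and Rora (0.77), and among the falls those of the costimulatory ligand gene Cd80 (-1.20) and the survival gene Bcl2 (-0.99). The exceptions, named after their values were seen, were S1pr1, a receptor for exit from lymph nodes, and Cdkn1b, a cell cycle inhibitor, with rises of 0.65 and 0.54 at the Bcl6 gate. Against the midpoint of the other groups, 15 of the 24 were above it and 2 under it in Cxcr5+Bcl6- cells (median 0.52). Of all genes 4.31% were called above it and 2.59% under it. These counts are not separate from the falls at the Bcl6 gate, since a gene low in Cxcr5+Bcl6+ cells alone lies above the midpoint. The list holds Prdm1, and it was compiled with earlier results of these data known.

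Effector genes reported as raised by Blimp-1 were lower where Prdm1 was low. Of 9, all measured, 7 were lower and 1 higher in Cxcr5+Bcl6+ cells than in Cxcr5+Bcl6- cells (median -0.77, against 0.06 for all genes), where 13.2% of all genes were called lower and 11.8% higher. Gzmb, which encodes granzyme B, stood at 6.73 and 6.71 in Cxcr5+Bcl6+ cells, at 11.89 and 11.98 in Cxcr5+Bcl6- cells and at 11.83 and 11.78 in Cxcr5-Bcl6- cells. The inhibitory receptor gene Havcr2 stood at 6.90 on both Cxcr5+Bcl6+ arrays, at 10.35 and 10.28 in Cxcr5+Bcl6- cells and at 9.90 and 9.84 in Cxcr5-Bcl6- cells. Both genes lay in the dim range in Cxcr5+Bcl6+ cells, where they differed by -5.22 and -3.41 from Cxcr5+Bcl6- cells. The interleukin gene Il10 differed by -3.06, with 7.40 and 8.02 in Cxcr5+Bcl6+ cells, 10.82 and 10.72 in Cxcr5+Bcl6- cells and 10.25 and 10.18 in Cxcr5-Bcl6- cells. The receptor gene Tigit, named after its values were seen at this gate, was the 1 that rose (0.41, limma adjusted p = 0.0245), a call lost with all rows tested and without any 1 of the 4 Cxcr5+ arrays.

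Genes reported as repressed by Blimp-1 did not move together. Of 11 measured, 6 were higher and 5 lower in Cxcr5+Bcl6+ cells than in Cxcr5+Bcl6- cells (median 0.31, against 0.06 for all genes), where 11.8% of all genes were called higher and 13.2% lower. The rises were Bcl6 and Cxcr5, both used or tracked by the sort, and Id3, Spib, Pax5 and Ciita, named after their values were seen. Id3, an inhibitor of helix-loop-helix factors, stood at 9.65 and 9.84 in Cxcr5+Bcl6+ cells, at 8.81 on both Cxcr5+Bcl6- arrays and at 8.78 and 8.76 in Cxcr5-Bcl6- cells. Spib and Pax5 are also on the B cell marker list, of whose 13 measured genes 6 were higher and 0 lower in the same comparison by limma, 0 were lower at an unadjusted p under 0.05, and 0 were called lower under each of 16 alternatives. The 6 became 2 where only probe sets above the median level were tested. In that comparison the receptor genes that set the dim range had a median difference of 0.30, against 0.24 for the B cell markers. Ciita lay near the upper edge of the dim range in Cxcr5+Bcl6+ cells (7.87 and 7.71). The part of B cells, or of such a shift at low levels, in the rises among genes reported as repressed by Blimp-1 was not tested. The Pax5 call was lost without either Cxcr5+Bcl6- array and without replicate 2 of the Cxcr5+Bcl6+ cells, and that of Ciita under 7 of its alternatives. Il2 (-2.59), Myc (-1.54) and Il7r (-1.44) fell instead.

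Genes reported as repressed by Bach2 were lower in Cxcr5+Bcl6+ cells, as Bach2 was. Of 20 listed, 19 were measured, and 17 were lower and 1 higher (Hmox1) than in Cxcr5+Bcl6- cells (median -1.26 against 0.06 for all genes). In that comparison 13.2% of all genes were called lower and 11.8% higher. Among the listed genes called lower were Ifng (-5.31), Gzmb (-5.22), Il12rb2 (-2.51) and Il12rb1 (-2.11). Against Cxcr5-Bcl6- cells 17 were lower and 2 higher (median -1.55), where 17.7% of all genes were called lower. Across the Cxcr5 gate, where Bach2 fell by 0.62 on the log2 scale, 4 rose and 5 fell (median 0.06), with 5.5% of all genes called higher and 5.49% called lower. The rises there were Ifng (1.17), Hmox1 (0.82), Rora (0.77) and Il10 (0.55), the last just past the threshold (limma adjusted p = 0.045) and lost under 6 of its alternatives. The falls there were led by Ccr9 (-2.07), a chemokine receptor gene also known from plasmacytoid dendritic cells. This list shares 4 of its 19 measured genes (21.1%) with the 24 of the Bcl6 list (16.7%), Prdm1, Gata3, Ifng and Rora, and 3 of 19 (15.8%) with the 9 Blimp-1 effector genes (33.3%).

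**Figure D3:**
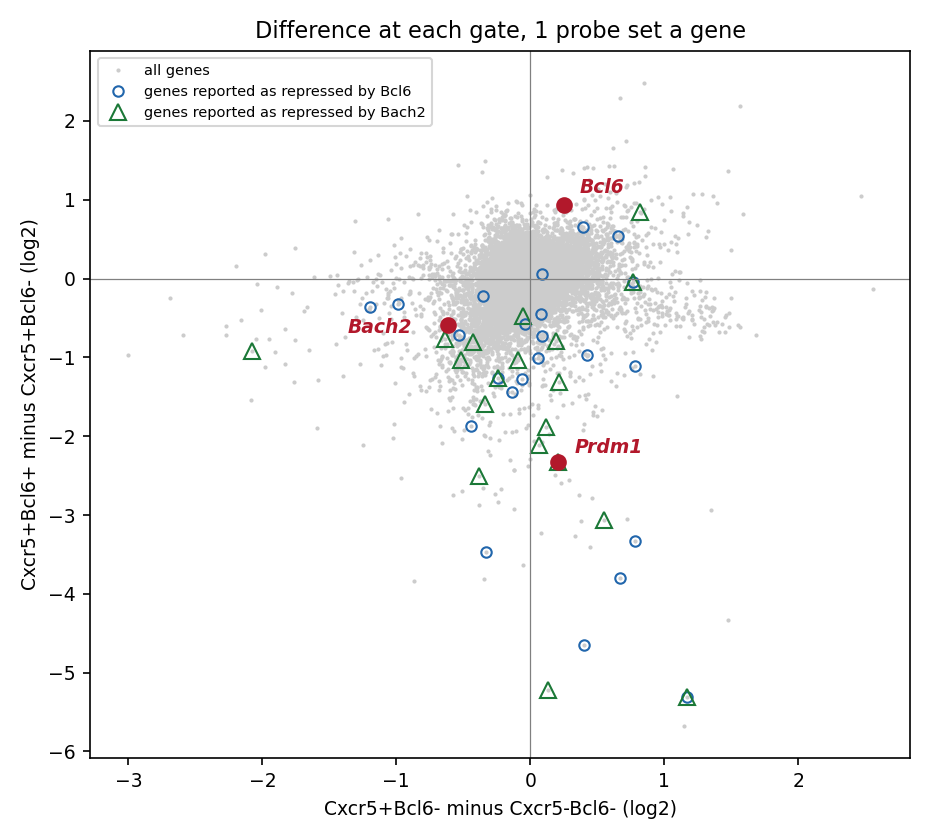
Difference at the Cxcr5 gate (horizontal, log2) against the difference at the Bcl6 gate (vertical, log2), with 1 grey point a gene, open circles and triangles for the genes of the Bcl6 and Bach2 lists and red points for the 3 genes. Both axes use the Cxcr5+Bcl6- arrays, so their scatter is not independent, and Prdm1 lies at 0.21 and -2.33 whereas Bach2 lies at -0.62 and -0.59.

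**Figure D4:**
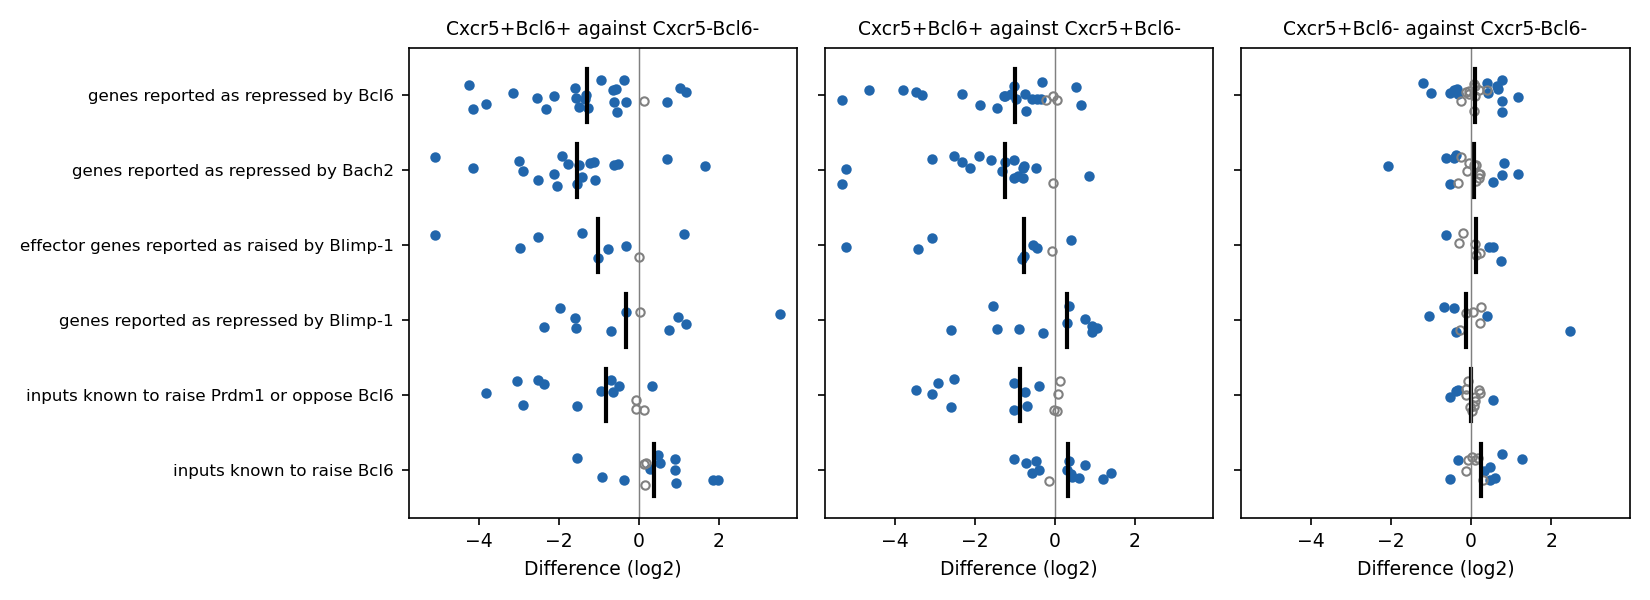
Difference (log2) of each listed gene in the 3 comparisons, filled where it passed the threshold and open where it did not, with a black bar at the median of the list. The lists of genes reported as repressed by Bcl6 and by Bach2 have medians of -0.99 and -1.26 at the Bcl6 gate and of 0.09 and 0.06 at the Cxcr5 gate.

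Markers of regulatory T cells, which are known to express Prdm1, were lower in Cxcr5+Bcl6+ cells, as Prdm1 was. All 10 listed markers were measured, and 9 were lower and 0 higher in Cxcr5+Bcl6+ cells than in Cxcr5+Bcl6- cells by limma (median -1.41, against 0.06 for all genes), where 13.2% of all genes were called lower. At an unadjusted p under 0.05, 0 were higher, and 0 were called higher under each of 16 alternatives. Nrp1, named after its values were seen, was not called (9.44 and 9.47 in Cxcr5+Bcl6+ cells, 9.59 and 9.43 in Cxcr5+Bcl6- cells). The summed level of the 10 was 13.94 to 14.04 in Cxcr5+Bcl6+ cells, 15.35 to 15.36 in Cxcr5+Bcl6- cells and 15.55 to 15.62 in Cxcr5-Bcl6- cells (log2 of the sum). Il2ra was the highest of the 10 in both reporter-negative groups, and Ctla4 in Cxcr5+Bcl6+ cells. Il2ra is also listed here as an input to Prdm1, and Ctla4 among effector genes raised by Blimp-1. The sum is therefore no measure of regulatory T cells alone. Foxp3, which defines these cells, stood at 9.72 and 9.76 in Cxcr5+Bcl6+ cells, at 12.34 and 12.49 in Cxcr5+Bcl6- cells and at 12.50 and 12.77 in Cxcr5-Bcl6- cells. At the Cxcr5 gate, where Prdm1 was not called, 1 of the 10 was higher (Itgae, 0.37) and 3 were lower (Gpr83, -1.59, Lrrc32, -1.02, and Ikzf4, -0.58), with a median of -0.17. Over all genes 5.5% were called higher and 5.49% lower at that gate. The Itgae call was lost with all rows tested, without either Cxcr5+Bcl6- array and without replicate 2 of the Cxcr5-Bcl6- cells. The part of these cells in the Prdm1 difference was not tested.

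Plasma cells, the other well-known source of Prdm1 RNA, had 7 markers measured, and 4 were lower in Cxcr5+Bcl6+ cells than in Cxcr5+Bcl6- cells by limma, 0 were higher, and 1 was higher at an unadjusted p under 0.05, while 13.2% of all genes were called lower there. Tnfrsf17 was in the dim range on every array, and Jchain was dim in Cxcr5+Bcl6+ cells. Sdc1 was not lower there, at 7.71 and 7.50 in Cxcr5+Bcl6+ cells, 7.34 and 7.49 in Cxcr5+Bcl6- cells and 7.31 and 7.43 in Cxcr5-Bcl6- cells. It was close to the upper edge of the dim range in all groups, and that edge was higher on the Cxcr5+Bcl6+ arrays (7.72 and 7.73). The summed level of the plasma cell list was 12.76 to 12.81 in Cxcr5+Bcl6+ cells, 13.60 to 13.63 in Cxcr5+Bcl6- cells and 13.95 to 13.96 in Cxcr5-Bcl6- cells. Irf4 and Xbp1 were the highest of the 7 on every array and made up most of that sum. Irf4 is also listed here as an input to Bcl6 and Prdm1, and Xbp1 among effector genes raised by Blimp-1. The sum is therefore no measure of plasma cells alone. Markers of B cells, which are rich in Bach2, went the other way from Bach2, with a summed level of 12.19 to 12.24 in Cxcr5+Bcl6+ cells, 11.72 to 11.77 in Cxcr5+Bcl6- cells and 11.49 to 11.54 in Cxcr5-Bcl6- cells. Of 13 measured, 8 were higher and 3 lower in Cxcr5+Bcl6+ cells than in Cxcr5-Bcl6- cells, where 16.4% of all genes were called higher and 17.7% lower. The 8 became 2 where only probe sets above the median level were tested. The median difference of the list was 0.76, against 0.22 for the receptor genes that set the dim range. On both arrays 6 of the 13 were dim in Cxcr5+Bcl6+ cells, 2 in Cxcr5+Bcl6- cells and 6 in Cxcr5-Bcl6- cells. Cd79a and Cr2 were in the dim range in all 3 groups. Myeloid and dendritic cell markers fell at the Cxcr5 gate as Bach2 did, with 11 of 15 lower and 1 higher in Cxcr5+Bcl6- cells than in Cxcr5-Bcl6- cells, where 5.49% of all genes were called lower and 5.5% higher. The 11 became 6 where only probe sets above the median level were tested, which leaves fewer markers in the test. Their summed level was 12.88 to 12.90 in Cxcr5+Bcl6+ cells, 13.02 to 13.08 in Cxcr5+Bcl6- cells and 13.81 to 13.87 in Cxcr5-Bcl6- cells, and Csf1r, Itgam, Clec9a and Xcr1 were dim in all 3 groups. CD8 T cell markers were lower in Cxcr5+Bcl6- cells than in Cxcr5-Bcl6- cells for 4 of 4 genes, and germinal centre B cell markers had Gcsam, Nuggc and Rgs13 of 5 in the dim range in every group. NK cell markers were dim for 4 of 5 genes on all arrays. The part of these other cells in the levels of Bcl6, Prdm1 and Bach2 was not tested.

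The genes most like each of the 3 were found from their levels over the 6 arrays, each centred on its own mean, by the root mean square difference (log2). Nearest to Bcl6, at 0.03 to 0.06, were Klf3, a zinc finger repressor, Cstad, Vdr, the vitamin D receptor gene, Neurl3 and the tetraspanin gene Cd9. Klf3 was 1.18 (log2) higher in Cxcr5+Bcl6+ cells than in Cxcr5-Bcl6- cells, and 0.88 higher than in Cxcr5+Bcl6- cells. Nearest to Prdm1, at 0.13 to 0.17, were the leukotriene receptor gene Cysltr2, the enkephalin precursor gene Penk, Entpd1, which encodes the ectonucleotidase CD39, Il12rb1 and Il2. Entpd1 fell by 2.56 on the log2 scale between Cxcr5+Bcl6+ cells and Cxcr5+Bcl6- cells and was higher by 0.29 in Cxcr5+Bcl6- cells than in Cxcr5-Bcl6- cells (limma adjusted p = 0.0816 for the second). Nearest to Bach2, at 0.03 to 0.06, were the small nucleolar RNA gene Snora3, the amino acid transporter gene Slc7a1, Tnfrsf21, Wdr46 and the T cell surface gene Cd7. Cysltr2 (5.36 and 5.37) and Entpd1 (6.89 and 6.93) lay in the dim range in Cxcr5+Bcl6+ cells, and Cstad (7.23 and 7.28) in Cxcr5-Bcl6- cells.

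Mirror images were looser for Prdm1 than for the other genes. The nearest to the sign-turned Prdm1 profile were Cxcr4, Pde2a, Tubb2a, Spock2 and Ascl2, at 0.36 to 0.40. For Bcl6 they were Mtap, Slco4a1, Tnfrsf18, Aen and Thop1, at 0.04 to 0.06, and for Bach2 they were Cdkn1b, Ctps2, Cd99l2, Wdfy2 and Klrb1c, at 0.06 to 0.09. Klrb1c lay in the dim range on all 6 arrays, Thop1 in Cxcr5+Bcl6+ cells and Ascl2 in Cxcr5-Bcl6- cells. After quantile normalisation, an alternative added after the data were seen, the 5 nearest genes were kept for Bcl6 in 5 of 5 cases, for Prdm1 in 4 and for Bach2 in 3, but of the mirror images 0, 4 and 1 remained. With 3 groups of 2 arrays such likeness is a description of these arrays.

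**Figure D5:**
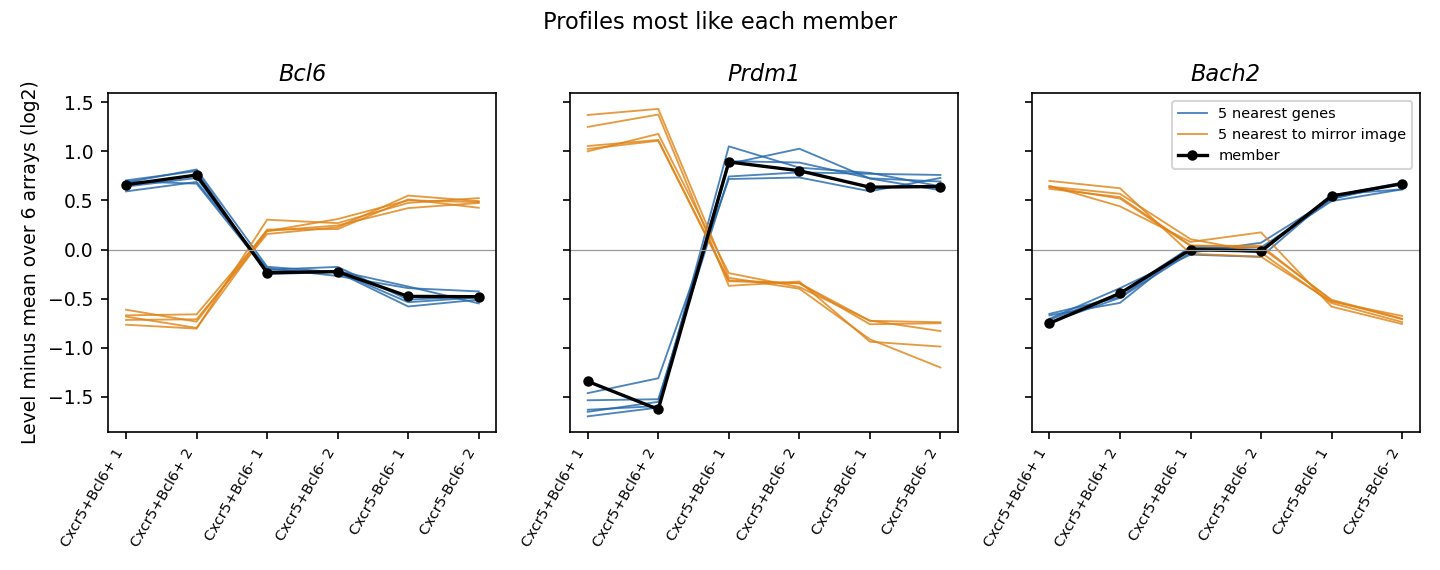
Level minus the mean over 6 arrays (log2) on each array, in black for the named gene, in blue for its 5 nearest genes and in orange for the 5 nearest to its mirror image. The Prdm1 profile drops on the Cxcr5+Bcl6+ arrays alone, and the Bach2 profile is lowest on them and highest on the Cxcr5-Bcl6- arrays.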

How the data were processed

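The authors deposited probe-set levels on the log2 scale, normalised across arrays (the log2 scale was read from the values). GCOS 1.1, RMA and Affymetrix Expression Console are named, without order or settings, per the submitters' processing notes. No source used here gives a genome build. Scanner files and detection calls were not used here, background correction was kept as deposited, and the number of arrays limits the precision. Of 35556 rows, 23410 had a symbol in the platform's annotation (21789 a single one), updated through Entrez identifiers for 21698.

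These 23410 were fitted with limma 3.58.1 in R 4.3.3 (lmFit with group means over all 6 arrays, eBayes at defaults, two-sided, 3 residual degrees of freedom). Benjamini-Hochberg adjustment ran over all of them, with a threshold of 0.05. The midpoint contrast sets Cxcr5+Bcl6- cells against the mean of the other groups. Lists, ranks and profiles used 1 probe set a gene, the highest in mean (19938 genes). The fit was tested on simulated data.

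Members and the 19 lists (222 genes, 204 measured; the other listed genes were not analysed here) were chosen with earlier results of these data known. Genes named were the 3 members, up to 4 per list with the smallest p in a comparison, and the 5 nearest profiles of each kind without uncurated symbols; others are said to be named after their values were seen, or are defining cell type markers. Alternatives were a trended or robust prior, quantile normalisation, median centring, filters at the 25th percentile and median, all rows, 1 probe set a gene, the 4 arrays compared, a replicate block, other call thresholds and leaving out each array.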

Additional observations from a re-analysis of the deposited data

How the results depend on the processing

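The falls of Prdm1 and Bach2 in Cxcr5+Bcl6+ cells, and the fall of Bach2 in Cxcr5+Bcl6- against Cxcr5-Bcl6- cells, passed the threshold under each of 16 alternatives, with adjusted p of at most 0.0426. Leaving out 1 array gave -2.47 to -2.19 for Prdm1 and -0.74 to -0.44 for Bach2 between the Cxcr5+ groups, and -0.68 to -0.55 for Bach2 at the Cxcr5 gate. Bcl6 between the reporter-negative groups passed after quantile normalisation (0.28) and above the median level (0.25). The Bcl6 midpoint value of -0.35 did not pass over all rows (-0.35, adjusted p = 0.058), nor without either Cxcr5+Bcl6- array (adjusted p = 0.187 and 0.163), and leaving out 1 array gave -0.37 to -0.32. That of Bach2, -0.01, turned to 0.0383 after median centring and ran from -0.0890 to 0.0634 without 1 array. The cause of these shifts was not tested.

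Calls over all probe sets numbered 8255 (Cxcr5+Bcl6+ against Cxcr5-Bcl6-), 6185 (Cxcr5+Bcl6+ against Cxcr5+Bcl6-), 2610 (Cxcr5+Bcl6- against Cxcr5-Bcl6-) and 1928 (midpoint). At a fold of at least 1.5 they were 3470, 1952, 822 and 616, and without 1 array they ran from 6780 to 8370, 3617 to 6987, 1317 to 2624 and 994 to 2560. The lowest came without Cxcr5+Bcl6- replicate 1, which leaves that group 1 array assumed to vary like the others, except for the first range. All rows gave 1579 in the third comparison, and probe sets above the median level 1269 at the midpoint. Rises were 50.8% of calls between the Cxcr5+ groups, 34.96% after median centring and 34.2% above the median level. At the midpoint they were 50.5%, against 64.7%, 61.9% (above the 25th percentile), 74.4% (above the median) and 62.8% (1 probe set a gene).

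The replicate numbers were not taken as pairs, since deviations of same-numbered arrays correlated at -0.05, -0.23 and 0.26 between groups. With the replicate block the calls of Bcl6, Prdm1 and Bach2 did not change, though those of some other listed genes did. Prdm1 kept -2.12 (limma adjusted p = 2.42e-07) and Bach2 -1.20 (limma adjusted p = 1.08e-05) between Cxcr5+Bcl6+ cells and Cxcr5-Bcl6- cells. Calls over all probe sets then numbered 7942, 5862, 2411 and 1760. Of 2394 counts over 19 lists under alternatives 288 moved by over 1.5 times. Where the main count was at least 10, 2 of 158 did, both falls of myeloid and dendritic cell markers against Cxcr5-Bcl6- cells above the median level, to 5 of 10 in Cxcr5+Bcl6+ cells and 6 of 11 in Cxcr5+Bcl6- cells.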
